A study of Mus musculus with 9 samples.

Results

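Synaptic vesicle and presynaptic release genes are described here: 40 genes for proteins that coat, fill out, dock, prime, fuse and recover synaptic vesicles at the nerve terminal. They were taken by name from the deposited table of 35112 genes, every one of the 40 was found, and all 40 were among the 21900 genes that passed the filter on low counts. They fall into 6 roles: 7 genes of the vesicle coat and membrane, 8 synaptotagmins and Doc2 calcium sensors, 9 SNAREs, complexins and disassembly factors, 4 genes of the Rab3 pathway, 8 active zone scaffold and priming genes and 4 endocytosis genes.

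The RNA came from brains of wild-type C57BL/6 mice, with 3 separate animals in each of 3 groups, and polyadenylated transcripts were sequenced. The sham group was labelled as a control treatment, the ICH group had an intracerebral haemorrhage, a bleed into the brain tissue, and the ICH+P7C3-A20 group had the haemorrhage and the compound. P7C3-A20 is a small molecule of the aminopropyl carbazole family, studied for protection of nerve cells. All brains were taken at 72 hours; the dose, the route, the brain region, the way the bleed was made and the age and sex of the mice are not stated in the sources used here. Animals were the replicates, and libraries are named by group and replicate number (ICH 2).

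Neurotransmitter is stored in synaptic vesicles that are held near the presynaptic membrane by synapsins and by the scaffold of the active zone. The vesicle protein synaptobrevin (Vamp) pairs with syntaxin and SNAP-25 of the plasma membrane in a SNARE complex, which Munc13 and RIM proteins make ready and complexin holds until synaptotagmin binds calcium and the membranes fuse. NSF and its adaptors then take the complex apart, and dynamin, amphiphysin, endophilin and AP180 retrieve the membrane. Most of these genes are transcribed almost only in neurons, so their RNA in brain tissue depends on how many neurons are in the piece and on how much RNA each makes. In bulk samples such as these, fewer cells of a type and less RNA per cell cannot be told apart.

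RefSeq promoter windows (GRCm38.p6, 250 bases before the start) were found for 30 of the 40 members, 39 windows in all, and searched on both strands. Those of Syn1 and Rph3a are shown because they hold RE1, the element read by the repressor REST that keeps many neuronal genes silent outside neurons. Those of Unc13a and Stx1a are shown because both genes rose after the compound. The Syn1 stretch is the 164 bases of its window left after 86 exon bases were trimmed, and the Rph3a window lies before an alternative start inside the gene, whose annotated start is at 121010092. Capitals mark RE1 and the cyclic AMP response element (CRE) in Syn1, RE1 in Rph3a, and GC boxes in Unc13a and Stx1a, and each line reads 5′ to 3′ on the gene's strand.
Syn1, chrX:20921005-20921168, minus strand: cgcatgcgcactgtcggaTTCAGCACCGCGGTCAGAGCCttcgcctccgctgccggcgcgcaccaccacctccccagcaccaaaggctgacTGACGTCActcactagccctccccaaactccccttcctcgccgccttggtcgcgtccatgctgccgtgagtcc
Rph3a, chr5:121009539-121009788, minus strand: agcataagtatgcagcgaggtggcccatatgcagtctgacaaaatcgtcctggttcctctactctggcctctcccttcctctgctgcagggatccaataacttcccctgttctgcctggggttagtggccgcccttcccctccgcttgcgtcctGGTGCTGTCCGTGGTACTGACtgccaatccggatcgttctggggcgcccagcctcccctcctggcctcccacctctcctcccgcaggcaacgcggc
Unc13a, chr8:71671758-71672007, minus strand: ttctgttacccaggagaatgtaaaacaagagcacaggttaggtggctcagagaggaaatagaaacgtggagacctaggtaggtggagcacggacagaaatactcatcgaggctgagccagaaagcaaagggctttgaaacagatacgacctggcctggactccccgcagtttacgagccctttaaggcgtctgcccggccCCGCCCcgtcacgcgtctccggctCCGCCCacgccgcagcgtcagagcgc
Stx1a, chr5:135023232-135023481, plus strand: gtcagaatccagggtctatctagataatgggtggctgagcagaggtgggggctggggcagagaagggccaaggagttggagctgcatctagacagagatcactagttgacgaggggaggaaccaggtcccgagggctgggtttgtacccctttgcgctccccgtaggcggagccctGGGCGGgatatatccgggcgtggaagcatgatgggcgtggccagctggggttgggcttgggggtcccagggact
RE1, searched with up to 1 mismatch, was found in Syn1 and Rph3a, against 0.0731% of all 32851 windows. The CRE, TGACGTCA, was found in Syn1 and Sh3gl2, against 1.55% of all windows. GC boxes, GGGCGG, were found in windows of 20 members, 53.8% of the 39 windows against 32.7% of all. The site of the factor NRF1 was found only in Bsn among the members (0.782% of all windows), and TATAAA only in Sv2b and Rab3b (12.4% of all). A match is a run of letters and not a measured binding site, and promoter windows were not searched for the 10 unmatched members.

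Libraries held 51537047 to 63324728 counts, and single members had between 212 (Cplx3) and 91711 (Cplx2) of them in a library. Sham libraries gave 1.17% to 1.25% of their counts to the 40 members and ICH libraries 0.782% to 0.832%. The share in ICH+P7C3-A20 1, 2 and 3 was 1.46%, 1.04% and 1.01%. One treated library, ICH+P7C3-A20 1, differed from the other 2. Its mean over the members on a log2(CPM + 1) scale was 0.25 above the sham mean, against -0.32 and -0.17 in ICH+P7C3-A20 2 and 3, and it was the highest of the 3 treated libraries in 33 of 40 members. In the same library 11 markers of cortical excitatory neurons averaged 1.57 above sham on that scale and 10 oligodendrocyte markers -1.01, against 0.83 and 0.99 and 0.04 and 0.02 in the other 2 treated libraries. Mitochondrially encoded transcripts made up under 12% of counts in sham 3, ICH 3 and ICH+P7C3-A20 2 and 14.3% to 18.5% in the others, and sham 3 was the lowest sham library in 23 members.

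On the scale that accounts for transcript length (FPKM), the commonest members in sham were Vamp2 at 216 ± 34.7 (SD, n = 3), Cplx2 at 212 ± 45.3 and Cplx1 at 207 ± 33.6 FPKM. Snap25 followed at 159 ± 5.31 FPKM, then Rab3a at 127 ± 18.8 and Syn1 at 109.9 ± 24.7 FPKM. Vamp2, Cplx2 and Cplx1 could not be placed in order, since their sham libraries overlapped, as did those of 33 of the 39 pairs of neighbours in the order. The lowest member was Syn3 at 0.907 FPKM. The median member stood at 19.3 FPKM in sham, 13.2 in ICH and 18.9 in ICH+P7C3-A20, and the highest place passed to Cplx1 in ICH, at 182 ± 10.8 FPKM.

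The comparison of ICH with sham asked what the haemorrhage did to these transcripts at 72 hours. Genes of every step of the vesicle cycle were lower: 23 of the 40 members, 57.5%, were called lower and 0 higher by edgeR at an adjusted p under 0.05. By the same rule 10.4% of all tested genes were called lower, 15.6% higher and 26.0% in either direction. Erc2, Rab3c, Doc2b, Syn3 and Pclo, a scaffold, a vesicle GTPase, a calcium sensor, a synapsin and a scaffold, had the most negative changes among the called members, from -0.93 to -0.85 on the log2 scale. The median over the 40 was -0.69 against 0.00 over all tested genes. With TMM scaling all 40 changes were below 0, but 10 of them were above 0 when libraries were scaled on 15 pan-neuronal genes in place of TMM: Syp, Syt7, Stx1a, Vamp1, Cplx1, Cplx3, Rab3b, Rph3a, Rims1 and Unc13c. In 34 members every ICH library lay under every sham library (18.8% of all tested genes did so), and the groups overlapped in Syn1, Stx1a, Vamp1, Cplx1, Cplx3 and Rab3b.

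Scaling on the pan-neuronal genes asks how the members moved against other neuronal transcripts, and it shifted the median change of all tested genes to 0.56. On that scale edgeR called 0 members lower and 0 higher in ICH, with the median member at -0.14. Over all 21900 tested genes it called 103 lower and 7615 higher. At an unadjusted p under 0.05 were Rab3c at -0.36 ± 0.16 and Cplx1 at 0.32 ± 0.14. The pan-neuronal genes had themselves changed: 9 of 15 were called lower in ICH and 0 higher with TMM scaling, with a median of -0.61, and their summed level went from 4329 to 5070 CPM in sham to 2954 to 3455 CPM in ICH. DESeq2, which scales on all genes, called 31 members lower, where it called 2891 of 34079 genes lower.

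Fits with 1 library left out have fewer animals, and the number of members called lower varied: 12 without sham 1, ICH 1 or ICH 3, 14 without ICH 2, 19 without sham 2 and 27 without sham 3. Calls over all tested genes in these fits are not given here, so whether other genes varied alike cannot be read from these counts. The median change over the members stayed between -0.74 and -0.65 in these fits, against -0.69 with all libraries. In each of them 24 to 32 members were lower at an unadjusted p under 0.05. Syn2, Sv2a, Sv2c, Syt2, Syt4, Doc2b, Rab3c, Rims2, Unc13a, Pclo and Erc2 were called lower in each of these 6 fits. Within the libraries under 12% mitochondrial counts, 1 per group, 39 of the 40 members were lower in ICH, and within the others, 2 per group, 38 were. The share of all tested genes that were lower within these libraries is not given here.

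The comparison of ICH+P7C3-A20 with ICH asked what the compound added. Of the 40 members 12, 30.0%, were called higher and 0 lower by edgeR, where 2.69% of all tested genes were called higher, 6.05% lower and 8.74% in either direction. Of the 12, 6 belong to the 8 active zone genes. They were the scaffolds Bsn, Pclo and Erc2, the RIM genes Rims1 and Rims2 and the priming gene Unc13a. The other 6 were Stx1a, Doc2a, Syt5, Syn2, Cplx2 and Syt4, with log2 changes from 0.41 to 1.42. The median over the 40 was 0.62 against -0.01 over all tested genes, and 37 changes were above 0, with Syt2, Vamp1 and Unc13c below 0; with pan-neuronal scaling Sv2a, Sv2c, Syt4, Doc2b, Cplx1 and Cplx3 also lay below 0. In 26 members every treated library lay above every ICH library (15.1% of all tested genes), and in 14 the groups overlapped.

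How many members passed in that comparison varied with the library left out, and each such fit has fewer animals. In each of them 37 or 38 of the 40 changes were above 0. With ICH+P7C3-A20 1 left out, 2 were called higher and the median was 0.37, and 2 were called without ICH 1, ICH 2 or ICH 3, 10 without ICH+P7C3-A20 3 and 20 without ICH+P7C3-A20 2. How many of all tested genes were called in these fits is not given here, so a change in calls over the whole table cannot be told apart. Rims1 and Unc13a were called in all 6 of these fits. With pan-neuronal scaling, which put the median of all tested genes at -0.41, only Rims1 passed, at 0.51 ± 0.16 (edgeR adjusted p = 0.0493). Over all tested genes that scaling called 44 of 21900 higher. DESeq2 called 23 members higher, where it called 1252 of 34079 genes higher. The cortical excitatory markers, 11 genes, had a median change of 1.29 in the same comparison, with 1 called higher (Lamp5; 0 with pan-neuronal scaling, median 0.845). They summed to 613 to 715 CPM in ICH and 1022 to 1881 CPM in ICH+P7C3-A20, and their part in the members' change was not tested.

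Set against sham, the treated animals' members lay near the sham level. edgeR called 1 member higher, Stx1a (4.58% of all tested genes were called higher), and 2 lower, Syt2 and Doc2b (0.744% of all tested genes; 5.32% were called in either direction). The median was -0.09 against 0.03 over all tested genes, 14 changes were above 0 and 26 below, and the groups overlapped in 32 members, with 2 higher without overlap (12.6% of all tested genes) and 6 lower (7.84%). With pan-neuronal scaling 23 changes were above 0 and 17 below, and Stx1a stayed called higher (edgeR adjusted p = 0.0278). The treated mean lay between the sham and ICH means for 23 members, above both for 14 and below both for 3. This place depended on ICH+P7C3-A20 1, which was the highest of all 9 libraries in 25 members: without it 35 of the 40 changes were below 0, the median was -0.30 and 6 members were called lower. Calls over all tested genes in that fit are not given here.

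**Figure D1:**
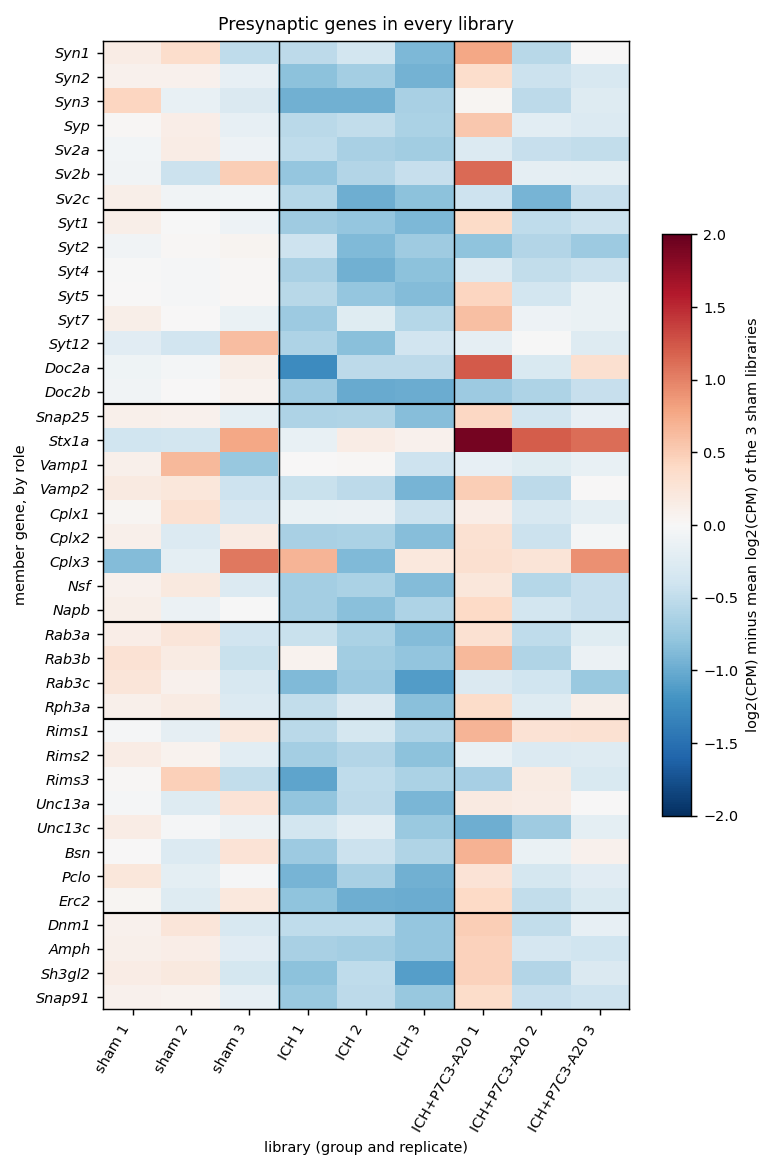
Level of each of the 40 members in every library as log2(CPM) minus the mean log2(CPM) of the 3 sham libraries; rows are genes in the 6 roles, columns are libraries, and red is above and blue below the sham mean. ICH columns are mostly blue, the column of ICH+P7C3-A20 1 is red for most genes, and Stx1a is red in all 3 treated libraries; these are TMM-scaled values, and 10 ICH changes lie above 0 when libraries are scaled on pan-neuronal genes.

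**Figure D2:**
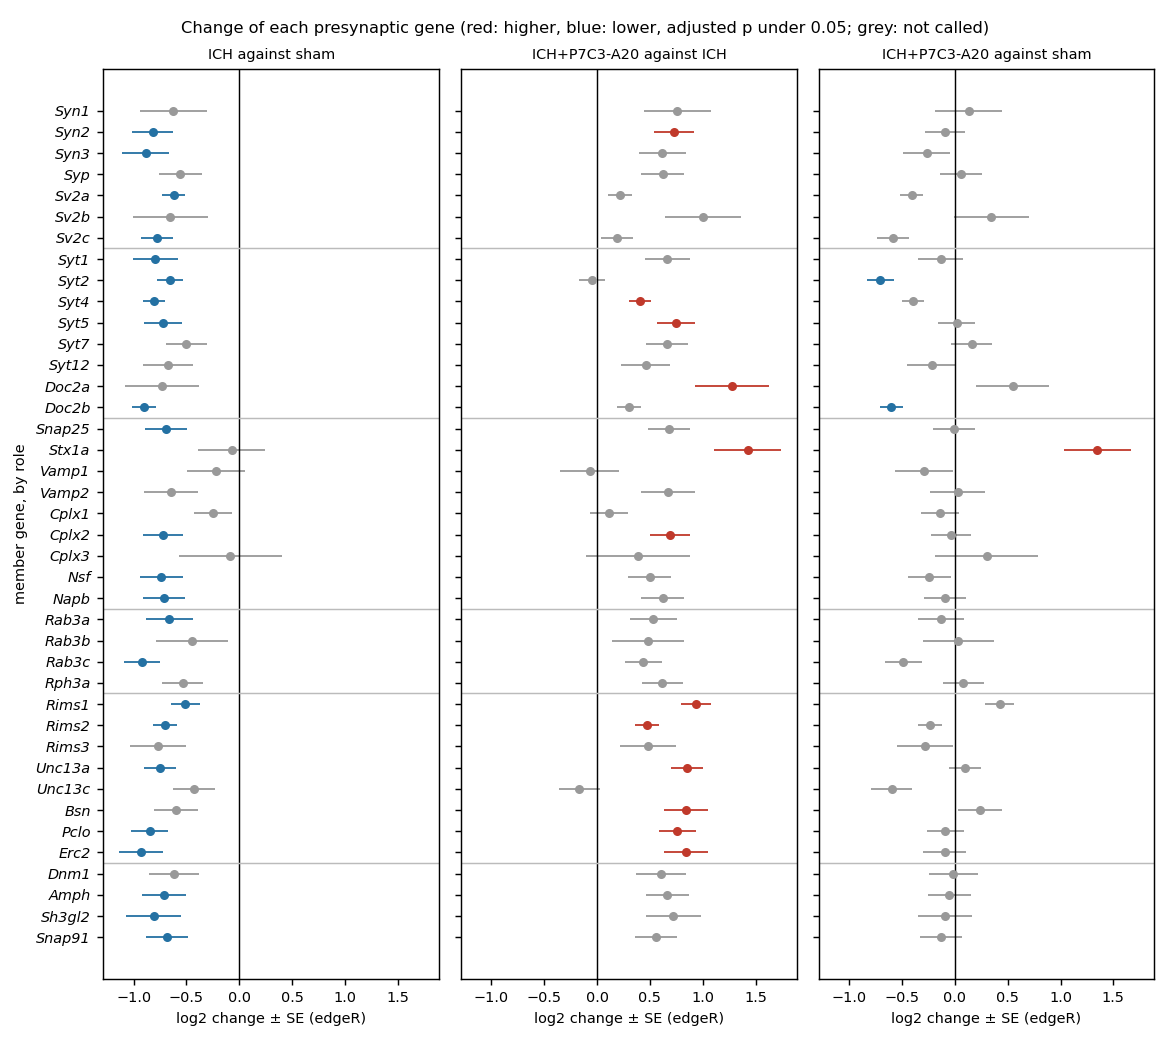
Log2 change of each member with its standard error (edgeR, all 9 libraries) in the 3 comparisons, with called genes in colour. In ICH 23 members are called lower, in ICH+P7C3-A20 against ICH 12 are called higher, and against sham only Syt2, Doc2b and Stx1a are called; with libraries scaled on pan-neuronal genes the change of Rims1 in ICH becomes 0.03 and that of Syt4 in ICH+P7C3-A20 against ICH becomes -0.01. The ICH libraries enter both of the first 2 panels and the sham libraries the outer 2, so the panels are not independent.

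Among the genes of the vesicle coat and membrane, 4 of 7 fell in ICH (Syn2, Syn3, Sv2a and Sv2c) and 1 of 7 rose in ICH+P7C3-A20 against ICH (Syn2). Synapsins coat the vesicle and tie it to the reserve pool. Syn2 stood at 276, 274 and 230.1 CPM in sham 1, 2 and 3, at 147, 161 and 134 CPM in ICH and at 331, 192 and 207 CPM in ICH+P7C3-A20. All ICH values lay under all sham and all treated values. Syn2 had a 1.77-fold lower level in ICH than in sham (log2 change -0.82 ± 0.19, edgeR adjusted p = 0.00932), and a 1.65-fold higher level in ICH+P7C3-A20 than in ICH (0.73 ± 0.19, edgeR adjusted p = 0.041). The second call was lost without ICH 1, ICH 2, ICH 3 or ICH+P7C3-A20 1 (adjusted p up to 0.147).

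Syn3, the rarest synapsin here, stood at 17.8, 11.99 and 10.9 CPM in sham, 6.81, 6.79 and 8.43 CPM in ICH and 13.6, 9.19 and 11.1 CPM in ICH+P7C3-A20. It fell 1.85-fold in ICH (log2 change -0.88 ± 0.22, edgeR adjusted p = 0.0138; not called without sham 1, ICH 1 or ICH 2, adjusted p up to 0.0581). Of its sequence, 14.1% of exon bases lie on those of Timp3 on the other strand, a gene at 159.8, 161 and 173 CPM in the 3 groups. Syn1 ranged widely within groups, at 477, 548 and 303 CPM in sham, 297, 332 and 231 CPM in ICH and 731, 293 and 431 CPM in ICH+P7C3-A20. Its groups overlapped in all 3 comparisons, and its change of -0.63 ± 0.32 in ICH did not pass (edgeR adjusted p = 0.184). With a covariate for a mitochondrial share under 12%, chosen after seeing the data, it was called lower in ICH (-0.59). The RE1 and CRE letters shown above are in the promoter of this gene, which showed no called change in the main fit.

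Syp encodes synaptophysin, a major protein of the vesicle membrane. Its level was 662, 715 and 581 CPM in sham, 449, 461 and 420.2 CPM in ICH and 945, 560 and 538 CPM in ICH+P7C3-A20, so that the ICH libraries lay under all others. Neither the change of -0.56 ± 0.20 in ICH (edgeR adjusted p = 0.0645) nor that of 0.62 ± 0.20 after the compound (edgeR adjusted p = 0.0821) passed. DESeq2 and some other settings did call it, and 16.8% of its exon bases lie on Gm14703 on the other strand, at 1.49 to 2.94 CPM in group means. The SV2 genes encode transporter-like glycoproteins of the vesicle. Sv2c stood at 146, 128 and 129 CPM in sham, 90.5, 67.9 and 75.9 CPM in ICH and 100.4, 70.3 and 96.9 CPM in ICH+P7C3-A20. It fell 1.71-fold in ICH (log2 change -0.78 ± 0.15, edgeR adjusted p = 0.00359), and its treated libraries overlapped the ICH libraries and stayed under every sham library (-0.59 ± 0.15 against sham, edgeR adjusted p = 0.0506). Sv2a also fell in ICH (-0.62 ± 0.11, edgeR adjusted p = 0.00228) and changed by 0.21 ± 0.11 after the compound without passing, while Sv2b (-0.65 ± 0.36 and 0.999 ± 0.36) passed in neither. Without ICH+P7C3-A20 1 the second Sv2b value was 0.41.

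Of the synaptotagmins and Doc2 genes, 5 of 8 fell in ICH (Syt1, Syt2, Syt4, Syt5 and Doc2b) and 3 of 8 rose in ICH+P7C3-A20 against ICH (Syt4, Syt5 and Doc2a). Syt1 encodes the main fast calcium sensor of forebrain synapses. It stood at 970.2, 895 and 834 CPM in sham, 548, 527 and 481 CPM in ICH and 1168, 629 and 666 CPM in ICH+P7C3-A20. Every ICH library lay under every other library, while 1 treated library lay above all sham libraries and 2 below them. The 1.74-fold lower level in ICH passed (log2 change -0.80 ± 0.21, edgeR adjusted p = 0.019) but not without sham 1, ICH 1, ICH 2 or ICH 3 (adjusted p up to 0.0717). Over the fits with 1 library left out this change was -0.85 to -0.74. The change of 0.66 ± 0.21 after the compound did not pass (edgeR adjusted p = 0.0798).

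Syt2, the fast sensor best known from hindbrain and from fast inhibitory neurons, stood at 62.4, 66.5 and 68.5 CPM in sham, 49.4, 35.6 and 40.1 CPM in ICH and 37.5, 43.9 and 39.7 CPM in ICH+P7C3-A20. Every sham library lay above every ICH and every treated library, and the ICH and treated libraries overlapped. Against sham the level was 1.58-fold lower in ICH (log2 change -0.66 ± 0.13, edgeR adjusted p = 0.00336) and 1.63-fold lower in ICH+P7C3-A20 (-0.70 ± 0.13, edgeR adjusted p = 0.00915). Both calls held with each library left out in turn, and the treated libraries differed from ICH by -0.05 ± 0.13 (edgeR adjusted p = 0.875). With pan-neuronal scaling neither call was made, at -0.10 ± 0.20 in ICH and -0.54 ± 0.20 in ICH+P7C3-A20 against sham (edgeR adjusted p = 0.721 and 0.191).

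Doc2b, a high-affinity calcium sensor linked to spontaneous release, was also low in both injured groups. Its sham libraries held 88.4, 94.0 and 97.7 CPM, its ICH libraries 56.6, 46.6 and 46.9 CPM and its treated libraries 56.2, 60.7 and 68.1 CPM. It fell 1.87-fold in ICH (log2 change -0.90 ± 0.11, edgeR adjusted p = 0.000211) and was 1.51-fold lower in ICH+P7C3-A20 than in sham (-0.60 ± 0.11, edgeR adjusted p = 0.0109), calls that held with each library left out in turn. Neither was made with pan-neuronal scaling, at -0.35 ± 0.18 and -0.44 ± 0.18 (edgeR adjusted p = 0.156 and 0.258). Its treated and ICH libraries overlapped by 1 library (0.30 ± 0.11, edgeR adjusted p = 0.119). Its paralog Doc2a was scarce, at 8.75, 9.01 and 10.1 CPM in sham, 3.86, 6.46 and 6.48 CPM in ICH and 21.8, 7.47 and 11.5 CPM in ICH+P7C3-A20. It rose 2.43-fold in ICH+P7C3-A20 against ICH (1.28 ± 0.35, edgeR adjusted p = 0.0477), a call lost without any 1 of the ICH libraries, ICH+P7C3-A20 1 or ICH+P7C3-A20 3 (adjusted p up to 0.175). Exons of Ino80e on the other strand cover 1103 of the 2803 exon bases of Doc2a, and Ino80e had 33.5, 37.2 and 37.8 CPM in the 3 groups. Here whether counting used the strand is not stated, so the reads of such pairs could not be told apart.

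Syt4, a synaptotagmin with an altered calcium site that is induced by neuronal activity, stood at 144, 144 and 148 CPM in sham, 92.7, 74.6 and 82.3 CPM in ICH and 120.4, 103 and 108 CPM in ICH+P7C3-A20. The 3 groups did not overlap and lay in the order sham, treated, ICH. It fell 1.75-fold in ICH (log2 change -0.80 ± 0.10, edgeR adjusted p = 0.000295). It was 1.33-fold higher in ICH+P7C3-A20 than in ICH (0.41 ± 0.10, edgeR adjusted p = 0.0373; not called without any 1 of the ICH libraries, ICH+P7C3-A20 1 or 3, adjusted p up to 0.137, and at -0.01 with pan-neuronal scaling). Against sham the treated value of -0.40 ± 0.10 did not pass (edgeR adjusted p = 0.0546). Syt5 fell in ICH (-0.73 ± 0.18, edgeR adjusted p = 0.0125, lost without ICH 2 or ICH 3 at up to 0.0537). It was higher in ICH+P7C3-A20 than in ICH (0.74 ± 0.18, edgeR adjusted p = 0.0297, lost without any 1 of the ICH libraries or ICH+P7C3-A20 1 at up to 0.115). Syt7, the slow sensor of delayed release (-0.50 ± 0.20 and 0.66 ± 0.20), and Syt12 (-0.68 ± 0.24 and 0.46 ± 0.24) passed in neither comparison.

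**Figure D3:**
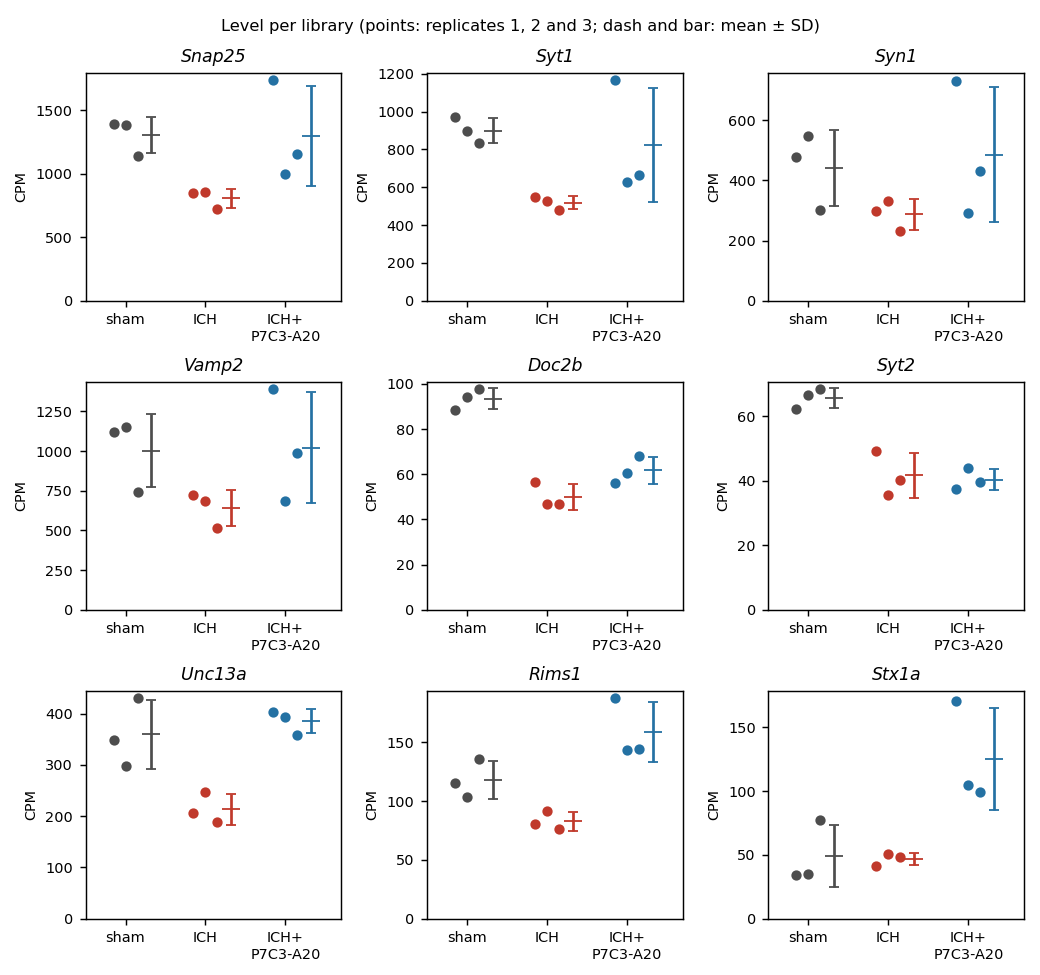
CPM of 9 members in each library, points for replicates 1, 2 and 3 and a dash with a bar for the mean ± SD (n = 3), on linear axes that start at 0. Snap25, Syt1 and Syn1 have 1 treated library far above the other 2, Doc2b and Syt2 stay below sham in all 3 treated libraries, and Stx1a and Rims1 lie above both other groups in all 3. In FPKM the treated and sham libraries of Rims1 overlap.

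Of the SNAREs, complexins and disassembly factors, 4 of 9 fell in ICH (Snap25, Cplx2, Nsf and Napb) and 2 of 9 rose in ICH+P7C3-A20 against ICH (Stx1a and Cplx2). Snap25, the plasma membrane SNARE, stood at 1391, 1385 and 1142 CPM in sham, 847, 856 and 721 CPM in ICH and 1740, 994 and 1159 CPM in ICH+P7C3-A20. Every ICH library lay under every other library. The 1.62-fold lower level in ICH passed (log2 change -0.69 ± 0.20, edgeR adjusted p = 0.0265) but was lost without sham 1, sham 2 or any 1 of the ICH libraries (adjusted p up to 0.101). Over the fits with 1 library left out this change was -0.78 to -0.62. After the compound its mean was 1298 ± 391.8 CPM against 1306 ± 143 CPM in sham (-0.01 ± 0.20, edgeR adjusted p = 0.991), and the change against ICH, 0.68 ± 0.20, did not pass (edgeR adjusted p = 0.059).

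Stx1a, the syntaxin that pairs with Snap25, was the 1 member called higher than sham after the compound. It stood at 34.4, 35.4 and 77.4 CPM in sham, 41.3, 50.4 and 48.3 CPM in ICH and 171, 105 and 99.2 CPM in ICH+P7C3-A20. The ICH libraries lay within the range of sham (-0.07 ± 0.31, edgeR adjusted p = 0.904), and every treated library lay above every other library. It rose 2.68-fold in ICH+P7C3-A20 against ICH (log2 change 1.42 ± 0.32, edgeR adjusted p = 0.0252) and was 2.55-fold higher than in sham (1.35 ± 0.32, edgeR adjusted p = 0.0391). The first call was lost without any 1 of the ICH libraries or ICH+P7C3-A20 1 (adjusted p up to 0.103). The second was lost without sham 1, sham 2 or any 1 of the treated libraries (up to 0.125), while without sham 3 it passed at a change of 1.84. With pan-neuronal scaling the first did not pass (0.97 ± 0.32, edgeR adjusted p = 0.0564) and the second did (1.415 ± 0.32, edgeR adjusted p = 0.0278). In sham 3, where Stx1a was highest among the sham libraries, the cortical excitatory markers were 0.78 above the sham mean, against -0.17 and -0.61 in sham 1 and 2, and whether they bear on the change of Stx1a was not tested.

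Vamp2, the vesicle SNARE, stood at 1118, 1152 and 739 CPM in sham, 722, 687 and 515 CPM in ICH and 1390, 687 and 989 CPM in ICH+P7C3-A20. Its ICH libraries lay under sham by a narrow margin, sham 3 at 739 against ICH 1 at 722. Neither the change in ICH (-0.65 ± 0.26, edgeR adjusted p = 0.0944) nor that after the compound (0.67 ± 0.26, edgeR adjusted p = 0.137) passed. The change in ICH was called by DESeq2 (-0.66), without sham 3 (-0.82) and in some other settings. Vamp1, its paralog, overlapped between all groups, at 70.8 to 187 CPM in sham, 89.3 to 122 CPM in ICH and 101 to 108 CPM in ICH+P7C3-A20.

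Complexins clamp and help to trigger the assembled SNARE complex. Cplx2 stood at 1329, 1027 and 1391 CPM in sham, 786, 794 and 689 CPM in ICH and 1526, 923 and 1204 CPM in ICH+P7C3-A20, with every ICH library under every other. It fell 1.65-fold in ICH (log2 change -0.72 ± 0.19, edgeR adjusted p = 0.0174), a call lost without sham 1, ICH 1 or ICH 3 (up to 0.0713). It was 1.61-fold higher in ICH+P7C3-A20 than in ICH (0.69 ± 0.19, edgeR adjusted p = 0.0498; lost without any 1 of the ICH libraries, ICH+P7C3-A20 1 or 3, up to 0.172). Cplx1 (-0.25 ± 0.18 in ICH and 0.11 ± 0.18 after the compound) and the retina-enriched Cplx3 (-0.09 ± 0.49 and 0.39 ± 0.49) passed in neither, and their groups overlapped. Without sham 3 the change of Cplx3 in ICH was 0.63.

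Nsf, the ATPase that takes used SNARE complexes apart, stood at 568, 609 and 439.8 CPM in sham, 332, 344 and 294 CPM in ICH and 623, 361 and 386 CPM in ICH+P7C3-A20. Napb, its neuronal adaptor beta-SNAP, stood at 237, 201.3 and 218 CPM in sham, 136, 122 and 143 CPM in ICH and 288, 169 and 158 CPM in ICH+P7C3-A20. Both had every ICH library under every other library in CPM. In FPKM this was lost for Napb, with ICH 3 at 18.8 and ICH+P7C3-A20 3 at 17.5. Nsf fell 1.67-fold in ICH (log2 change -0.74 ± 0.21, edgeR adjusted p = 0.0232) and Napb 1.64-fold (-0.71 ± 0.20, edgeR adjusted p = 0.0241). The call of Nsf was lost without sham 1, sham 2 or any 1 of the ICH libraries (adjusted p up to 0.0866) and that of Napb without sham 1 or any 1 of the ICH libraries (up to 0.0934). After the compound neither passed against ICH, at 0.50 ± 0.21 and 0.62 ± 0.20.

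Rab3 proteins are small GTPases that sit on vesicles and bind RIM and rabphilin; 2 of the 4 genes of this pathway fell in ICH (Rab3a and Rab3c) and 0 of 4 were called after the compound. Rab3c stood at 456, 406 and 306 CPM in sham, 208, 231 and 177 CPM in ICH and 314, 291 and 229 CPM in ICH+P7C3-A20. It fell 1.89-fold in ICH (log2 change -0.92 ± 0.17, edgeR adjusted p = 0.00309) and was called with each library left out in turn. With pan-neuronal scaling it was not called (-0.36 ± 0.16, edgeR adjusted p = 0.0964). The treated libraries overlapped both other groups. Rab3a, the Rab3 isoform with the highest FPKM here, stood at 373, 399.5 and 260.3 CPM in sham, 248, 219 and 187 CPM in ICH and 419, 238 and 287 CPM in ICH+P7C3-A20. Its 1.58-fold lower level in ICH was near the threshold (-0.66 ± 0.22, edgeR adjusted p = 0.0488) and was lost without sham 1, sham 2 or any 1 of the ICH libraries (adjusted p up to 0.164). Rab3b (-0.45 ± 0.34) and the Rab3 effector Rph3a (-0.54 ± 0.19, edgeR adjusted p = 0.0663), with the RE1 letters shown above before an alternative start, did not pass.

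At the active zone, the release site where scaffolds gather calcium channels and primed vesicles, 5 of 8 genes fell in ICH (Rims1, Rims2, Unc13a, Pclo and Erc2) and 6 of 8 rose in ICH+P7C3-A20 against ICH (the same 5 genes and Bsn). Unc13a encodes Munc13-1, which opens syntaxin so that the SNARE complex can form. It stood at 349, 298 and 431 CPM in sham, 206, 246 and 188 CPM in ICH and 404, 393 and 359 CPM in ICH+P7C3-A20. The ICH libraries lay under all others and the treated and sham libraries overlapped, with treated libraries close together. Unc13a fell 1.68-fold in ICH (log2 change -0.75 ± 0.15, edgeR adjusted p = 0.00439) and was 1.80-fold higher in ICH+P7C3-A20 than in ICH (0.85 ± 0.15, edgeR adjusted p = 0.00987). Both calls held with each library left out in turn, with adjusted p up to 0.0247 and 0.0475. Neither was made with pan-neuronal scaling, at -0.22 ± 0.19 and 0.45 ± 0.19 (edgeR adjusted p = 0.405 and 0.126). Its paralog Unc13c, best known from the cerebellum, changed by -0.43 ± 0.20 in ICH and by -0.17 ± 0.20 after the compound and passed in neither.

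Rims1 encodes a RIM scaffold that links Rab3, Munc13 and calcium channels. It stood at 116, 103 and 136 CPM in sham, 80.9, 91.8 and 76.1 CPM in ICH and 188, 143 and 145 CPM in ICH+P7C3-A20. In CPM the 3 groups did not overlap: every treated library lay above every sham library and every sham library above every ICH library. In FPKM the treated and sham groups overlapped, with sham 3 at 15.8 and ICH+P7C3-A20 3 at 14.4. It was 1.91-fold higher in ICH+P7C3-A20 than in ICH (log2 change 0.94 ± 0.14, edgeR adjusted p = 0.00698), also with each library left out in turn (up to 0.0324). It lay 0.43 ± 0.14 above sham, which did not pass (edgeR adjusted p = 0.127). Its lower level in ICH, 1.42-fold (-0.51 ± 0.14, edgeR adjusted p = 0.022), was lost without sham 1, sham 3, ICH 1 or ICH 3 (adjusted p up to 0.0887) and was 0.03 with pan-neuronal scaling. Rims2 fell in ICH (-0.70 ± 0.11, edgeR adjusted p = 0.00117) in every fit with 1 library left out, but was not called with pan-neuronal scaling (-0.14 ± 0.13, edgeR adjusted p = 0.432). It rose in ICH+P7C3-A20 against ICH (0.47 ± 0.11, edgeR adjusted p = 0.0296; lost without any 1 of the ICH libraries, ICH+P7C3-A20 1 or 3, up to 0.124). Rims3, a short RIM, passed in neither (-0.77 ± 0.26 in ICH, edgeR adjusted p = 0.057, and 0.48 ± 0.26).

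Piccolo (Pclo), Bassoon (Bsn) and Erc2 are the large scaffolds of the active zone. Pclo stood at 256, 192 and 216 CPM in sham, 115, 140.2 and 113 CPM in ICH and 265, 173 and 187 CPM in ICH+P7C3-A20. Erc2 stood at 119.8, 97.1 and 135 CPM in sham, 66.5, 59.2 and 58.4 CPM in ICH and 152, 82.8 and 93.9 CPM in ICH+P7C3-A20. In both genes every ICH library lay under every other library and ICH+P7C3-A20 1 was the highest of all in CPM. In FPKM the highest library of Erc2 was sham 3, at 12.58 against 11.97 in ICH+P7C3-A20 1. Pclo fell 1.80-fold (log2 change -0.85 ± 0.17, edgeR adjusted p = 0.00497) and Erc2 1.91-fold in ICH (-0.93 ± 0.21, edgeR adjusted p = 0.00781), and both calls held with each library left out in turn. Neither was made with pan-neuronal scaling, at -0.30 ± 0.15 and -0.39 ± 0.19 (edgeR adjusted p = 0.144 and 0.124). After the compound Pclo rose 1.69-fold (0.76 ± 0.17, edgeR adjusted p = 0.0253), Erc2 1.79-fold (0.84 ± 0.21, edgeR adjusted p = 0.0343) and Bsn 1.79-fold (0.84 ± 0.21, edgeR adjusted p = 0.034). These 3 calls were lost without any 1 of the ICH libraries or ICH+P7C3-A20 1, at up to 0.103, 0.119 and 0.13. Bsn did not pass in ICH (-0.60 ± 0.21, edgeR adjusted p = 0.0575).

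Genes of endocytosis, the step that wins vesicle membrane back, fell in 3 of 4 cases in ICH (Amph, Sh3gl2 and Snap91), and 0 of 4 were called after the compound. Amph, for the dynamin-binding protein amphiphysin, stood at 120.1, 123 and 95.5 CPM in sham, 71.3, 69.9 and 65.5 CPM in ICH and 154, 88.7 and 84.9 CPM in ICH+P7C3-A20. Sh3gl2, for endophilin A1, stood at 176, 181 and 124 CPM in sham, 89.9, 111 and 73.4 CPM in ICH and 217, 105 and 129.6 CPM in ICH+P7C3-A20. Snap91, for the clathrin adaptor AP180, stood at 205, 205 and 173 CPM in sham, 116, 134 and 114 CPM in ICH and 249, 141 and 145 CPM in ICH+P7C3-A20. In all 3 every ICH library lay under every sham library, and only Sh3gl2 had treated libraries overlapping ICH. The levels in ICH were 1.64-fold (Amph, log2 change -0.71 ± 0.21, edgeR adjusted p = 0.0266), 1.76-fold (Sh3gl2, -0.81 ± 0.26, edgeR adjusted p = 0.0434) and 1.60-fold lower (Snap91, -0.68 ± 0.20, edgeR adjusted p = 0.029). These calls were lost without sham 1, sham 2, ICH 1 or ICH 3, and for Amph and Snap91 also without ICH 2, at adjusted p up to 0.0867, 0.151 and 0.0961. After the compound the changes were 0.66 ± 0.21, 0.72 ± 0.26 and 0.55 ± 0.20, and Dnm1, for the fission GTPase dynamin, had -0.61 ± 0.24 in ICH and 0.60 ± 0.24 after the compound; none of these passed.

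Members called lower in ICH and higher in ICH+P7C3-A20 against ICH were Syn2, Syt4, Syt5, Cplx2, Rims1, Rims2, Unc13a, Pclo and Erc2, 9 in all; both comparisons use the same ICH libraries, so an error in those libraries enters both. The 14 members called in none of the 3 comparisons in the main fit were Syn1, Syp, Sv2b, Syt7, Syt12, Vamp1, Vamp2, Cplx1, Cplx3, Rab3b, Rph3a, Rims3, Unc13c and Dnm1.

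Ratios of related genes within a library do not depend on how libraries are scaled against each other. Of 9 pairs, set up after the levels were known, Rims2 to Rims1 separated the treated group from both others. The log2 ratio of FPKM was -0.27, -0.19 and -0.86 in the sham libraries, -0.58, -0.68 and -0.64 in the ICH libraries and -1.26, -1.003 and -1.001 in ICH+P7C3-A20. The exact two-sided permutation test gave p = 0.1 against each group, the smallest that 3 against 3 libraries allow, and an adjusted p of 0.338 over the 27 tests. The ratio of Unc13c to Unc13a was lower in every treated library than in every ICH library, at -1.80, -1.50 and -0.84 against -0.22, -0.32 and -0.45 (exact p = 0.1). Vamp1 to Vamp2, Cplx1 to Cplx2 and Sv2a to Sv2b also lay lower in every treated than in every ICH library, each at the same smallest p. A ratio shows unequal change of 2 genes and does not say which of them changed.

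**Figure D4:**
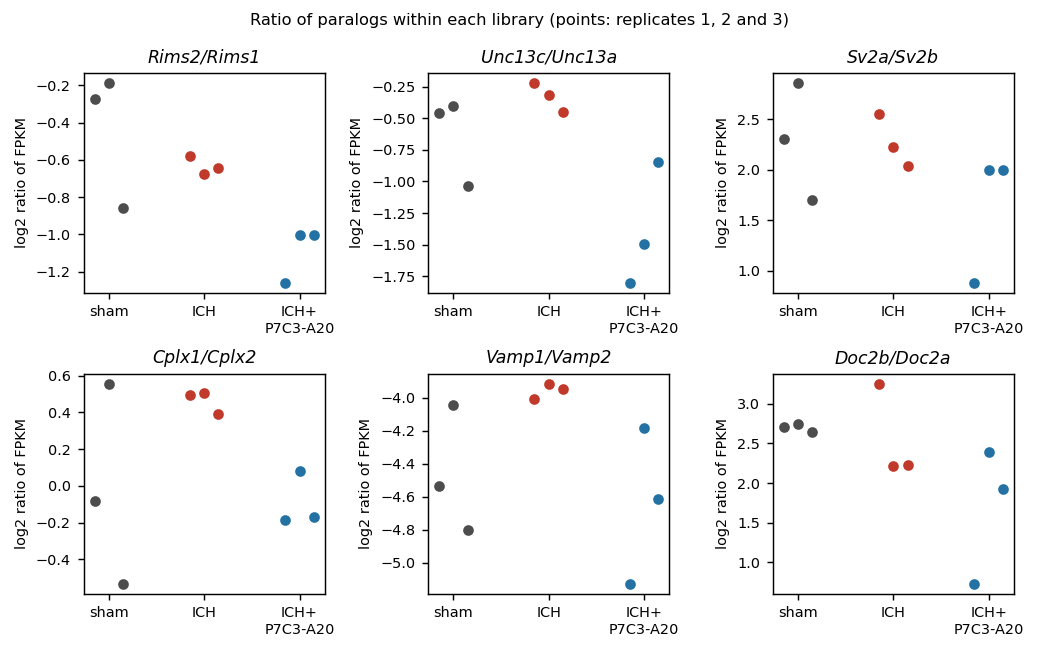
Log2 ratio of FPKM of 6 pairs of related members within each library, points for replicates 1, 2 and 3. In ICH+P7C3-A20 the ratio of Rims2 to Rims1 lies under both other groups, and the ratio of Doc2b to Doc2a lies under all sham libraries; axes do not start at 0 and differ between panels.

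Of 51 further genes listed for release and recycling, 49 were tested (Cplx4 was at 0 in all libraries and Caps had no row under that name). Caps and Caps2 name calcyphosine genes and not vesicle priming factors. Caps2 is among the 49 and was not called in any comparison in the main fit. Of the 49, edgeR called 25 lower and 2 higher in ICH with a median of -0.53 (with pan-neuronal scaling 2 lower and 5 higher). In ICH+P7C3-A20 against ICH 11 were called higher and 0 lower with a median of 0.41 (with pan-neuronal scaling 0 higher and 1 lower), and against sham 1 higher and 1 lower. The smallest p values in ICH were those of Rab27b, a GTPase of vesicle recruitment (log2 change -1.02 ± 0.12, edgeR adjusted p = 0.000135), Syt6 (-0.94 ± 0.12, edgeR adjusted p = 0.000328) and the presynaptic adhesion gene Nrxn3 (-0.94 ± 0.14, edgeR adjusted p = 0.000636). Named after their values were seen, the 2 that rose in ICH were Snap29 (0.32 ± 0.10) and the endophilin Sh3gl1 (0.63 ± 0.10), both expressed in many tissues. Sh3gl1 was also the 1 called higher against sham (0.47 ± 0.10, edgeR adjusted p = 0.0224), where Syt6 was called lower (-0.58 ± 0.12, edgeR adjusted p = 0.0206).

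Vesicles are filled by transmitter transporters, which draw on the gradient made by the vesicular proton pump. Of 7 transporters 3 fell in ICH and 0 rose (with pan-neuronal scaling 1 fell and 1 rose, median -0.33). They were Slc32a1 for GABA and glycine (-0.92 ± 0.11, edgeR adjusted p = 0.000202), Slc17a8 for glutamate (-1.33 ± 0.18, edgeR adjusted p = 0.00044) and Slc18a2 for monoamines (-0.88 ± 0.24, edgeR adjusted p = 0.023). Slc17a8 was the 1 called higher in ICH+P7C3-A20 against ICH (0.84 ± 0.18, edgeR adjusted p = 0.0209), and Slc32a1 the 1 called lower against sham (-0.81 ± 0.11, edgeR adjusted p = 0.00255); with pan-neuronal scaling 0 transporters were called in either of these comparisons. Of 16 proton pump subunits 6 fell and 0 rose in ICH (median -0.37; with pan-neuronal scaling 0 fell and 3 rose), among them Atp6v1c1 (-0.48 ± 0.10), Atp6v1b2 (-0.63 ± 0.13) and Atp6v1e1 (-0.44 ± 0.11). Of the 16, 0 were called in either comparison of the treated group, with 5 and 3 at an unadjusted p under 0.05; with pan-neuronal scaling 2 fell against ICH.

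Of 21 tested SNARE and release genes used mainly outside neurons, 11 rose and 1 fell in ICH with a median of 0.66, and 1 rose and 4 fell in ICH+P7C3-A20 against ICH with a median of -0.35. With pan-neuronal scaling 15 rose and 0 fell in ICH (median 1.201), and 0 rose and 9 fell in ICH+P7C3-A20 against ICH (median -0.72). Snap23, which takes the place of Snap25 in most tissues, rose 1.18 ± 0.13 on the log2 scale (edgeR adjusted p = 8.51e-05), from a mean of 15.5 CPM in sham to 35.1 CPM in ICH, and stood at 23.8 CPM in ICH+P7C3-A20. Vamp8, a SNARE of secretory granules and late endosomes, rose 2.11 ± 0.24 (edgeR adjusted p = 0.000112), and Dnm2, the dynamin found in all tissues, 1.04 ± 0.12 (edgeR adjusted p = 0.000107). These 3 genes fell in ICH+P7C3-A20 against ICH by 0.56, 0.85 and 0.55 on the log2 scale and stayed above sham, called by edgeR in both. The 1 that fell in ICH and rose after the compound, named after its value was seen, was Stx3; neither call was made with pan-neuronal scaling.

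**Figure D5:**
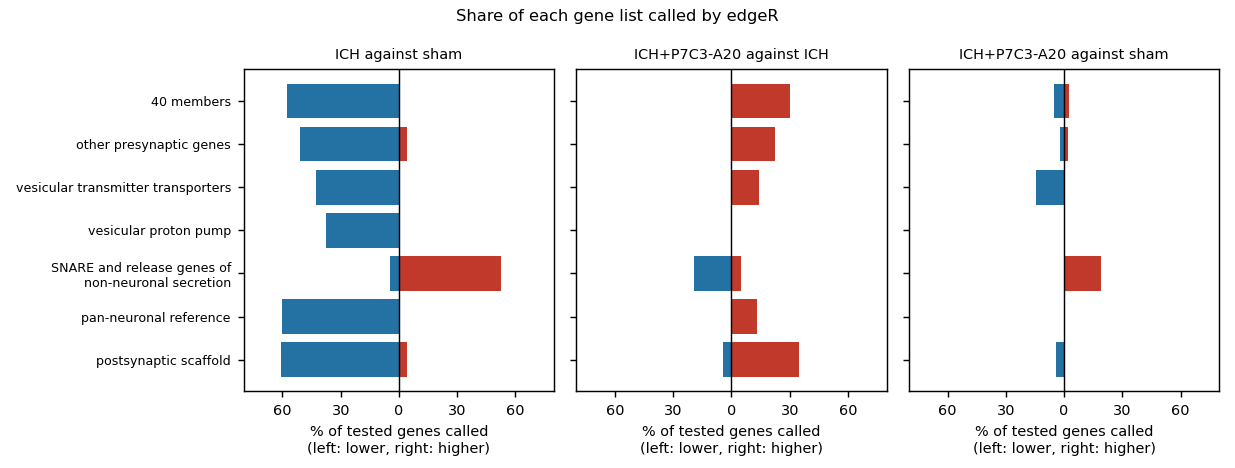
Share of each gene list called lower (left, blue) and higher (right, red) by edgeR in the 3 comparisons, as a percentage of its tested genes. The 40 members and the other presynaptic, pan-neuronal and postsynaptic lists are mostly called lower in ICH while release genes of non-neuronal secretion are called higher; with pan-neuronal scaling 0 of the 40 members and 2 of 49 other presynaptic genes are called lower in ICH.

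Genes on the far side of the synapse and markers of other cells moved in the same libraries. Of 23 postsynaptic scaffold genes, 14 fell and 1 rose in ICH (median -0.52) and 8 rose and 1 fell in ICH+P7C3-A20 against ICH (median 0.48); with pan-neuronal scaling 0 fell and 1 rose in ICH and 0 rose and 1 fell against ICH, with medians of 0.04 and 0.07. All 16 microglia and macrophage markers rose in ICH, from a sum of 433 to 536 CPM in sham to 2760 to 3066 CPM, and stood at 971 to 1721 CPM in ICH+P7C3-A20, and 8 of 10 astrocyte markers rose. Of 14 striatal projection neuron markers 12 fell in ICH, with sums of 5809 to 9539 CPM in sham and 4216 to 4716 CPM in ICH, while 1 of 11 cortical excitatory markers fell and 0 rose. With pan-neuronal scaling 0 striatal markers fell in ICH (median -0.25), and 0 cortical markers fell and 1 rose. In ICH+P7C3-A20 the striatal sum was 3698 to 5523 CPM, 0 of 14 were called against ICH and 4 fell against sham (0 with pan-neuronal scaling). No marker of these neuronal, glial and immune lists was at 0 in all libraries, and the part of these cells in the change of the members was not tested.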

How the data were processed

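The authors deposited 1 table with estimated counts and FPKM (fragments scaled by transcript length and library size) for each gene and library, per the file headers. Per the submitters' processing notes, cutadapt 1.9, HISAT2 2.0.4 and StringTie 1.3.4d were used; which build was used, whether counting was stranded and how counts were made is not stated there. Counts were whole numbers as deposited. Genes with low counts were removed (filterByExpr, minimum count 10, minimum total 15), and the 21900 genes left were fitted in edgeR 4.0.16 (TMM scaling, robust quasi-likelihood test, all 9 libraries, 6 residual degrees of freedom, Benjamini-Hochberg adjustment over all tested genes, called at adjusted p under 0.05). Levels are TMM-scaled CPM, changes are log2, and ± after a change is its standard error. Overlap between groups and the order of libraries were read in CPM unless FPKM is named, and they can differ in FPKM. RefSeq promoter windows (GRCm38.p6) were searched for 5 motifs, and exon overlaps were taken from GENCODE M21. The fit was tested on counts simulated with 200 changed genes, drawn from all tested genes. Over the 3 comparisons 6% to 16% of 1.5-fold changes, 30% to 44% of 2-fold and 78% to 80% of 8-fold changes were recovered. Of the calls, 4.08% to 5.56% were false. The data had more calls than 200 in each comparison: 5701 of 21900 tested genes in ICH against sham. In ICH+P7C3-A20 they were 1914 against ICH and 1165 against sham. The adjusted threshold depends on how many genes change, so the simulated rates need not hold for the data. Changes of the size seen in the members can go uncalled, though rates for the members alone were not measured. Alternatives were other scalings and filters, DESeq2 1.42.0, limma 3.58.1 on log2(FPKM + 1), a block on replicate number, and fits with 1 library removed.

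The members and lists were chosen with earlier results of these data known. Values in every library were given for Syn1, Syp, Syt1, Snap25, Stx1a and Vamp2, for up to 3 called members per role with the largest change in ICH against sham, for up to 4 with the smallest p in each other comparison, and for Doc2a, chosen after its values were seen. For Vamp1, also chosen after its values were seen, the range in each group was given. Of every other list, up to 3 genes with the smallest p in ICH against sham were named.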

Additional observations from a re-analysis of the deposited data

How the results depend on the processing

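With scaling on the 15 pan-neuronal genes 0 members were called lower in ICH (1 at an unadjusted p under 0.05), 1 higher in ICH+P7C3-A20 against ICH and 0 lower against sham. Stx1a stayed called higher against sham (1.415 ± 0.32, edgeR adjusted p = 0.0278). Over all 21900 tested genes that scaling called 103 lower in ICH, 44 higher against ICH, and 4 lower and 965 higher against sham. It turned the sign of 2 called changes, Rims1 in ICH at 0.03 and Syt4 in ICH+P7C3-A20 against ICH at -0.011. Counting members that were not called too, 10 of 40 changes in ICH were then above 0 (0 with TMM) and 9 of 40 against ICH below 0 (3 with TMM). For members higher in ICH+P7C3-A20 against ICH, DESeq2 gave 23, limma on log2(FPKM + 1) 6 and limma on log2(FPKM + 0.1) 3. A mitochondrial covariate, chosen after seeing the data, gave 22. The share of all tested genes called higher in that comparison moved the same way. It was smaller than in the main fit with both of these limma fits, and larger with DESeq2 and with the covariate. These member counts therefore do not show a dependence on the fit that is particular to the members. For members lower than sham in ICH+P7C3-A20, DESeq2 gave 6, both limma fits 0, upper quartile scaling 4, no filter 5, a filter at 1 CPM in 3 libraries 4 and the mitochondrial covariate 5. Over all genes DESeq2 called 502 of 34079 lower than sham, the limma fits 16 and 27 of 22675 and upper quartile scaling 173 of 21900. No filter gave 205 of 34079, the filter at 1 CPM 187 of 16928 and the covariate 418 of 21900. For members higher than sham, both limma fits, no filter and the compared groups alone gave 0. Over all genes these fits called 308 and 488 of 22675, 877 of 34079 and 393 of 20832 higher. The cause was not tested in any of these. Leaving out 1 library, which leaves fewer animals in 1 group, gave 12 to 27 members lower in ICH and 2 to 20 higher in ICH+P7C3-A20 against ICH. Against sham it gave 2 to 6 lower and 0 to 1 higher. Calls over all genes in these fits are not given here.

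Same-numbered libraries did not deviate together throughout (correlations from -0.264 to 0.248), so the numbers were not taken to pair the samples. For numbers 1, 2 and 3 the values were 0.108, 0.076 and 0.248 between sham and ICH. They were 0.142, -0.063 and -0.043 between sham and ICH+P7C3-A20, and 0.09, -0.264 and -0.262 between ICH and ICH+P7C3-A20. The largest correlation across groups, 0.405, was between ICH 3 and ICH+P7C3-A20 2, both under 12% mitochondrial counts. With a replicate block 24 members were lower in ICH, 9 higher in ICH+P7C3-A20 against ICH, and 3 lower and 0 higher against sham. Over all 21900 tested genes that fit called 2078, 480, 114 and 830. With 3 animals per group, differences smaller than the spread between animals could not be called, and the lowest count of a member in a library was 212.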
